A study of Bos taurus with 8 samples.

Results

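The cells described here are the monocytes and macrophages of bovine skeletal muscle, followed from freshly digested tissue into the first 72 h of culture. They were chosen by the study's own cell annotation, the predicted phenotype Monocytes/macrophages, which marked 544 of the 36129 cells of the series, 403 in the muscle library (Timepoint 1) and 141 in the passage 0 library (Timepoint 2, P0). No cell at passages 2, 5 or 8 carried the label. Both groups came from semitendinosus muscle of Belgian Blue cattle of both sexes, 5 adults and 5 calves at Timepoint 1. At P0 cells came from 9 of these animals, without the adult donor 3. No animal carried a treatment or genetic modification. The muscle cells were profiled straight after collagenase digestion and lysis of red blood cells. The P0 cells had been plated per animal in serum-free growth medium on fibronectin, without any sorting according to the study's methods (the sample label itself lists SCs, FAPs and unsorted cells), and were the fraction that adhered over that time. Cells of the animals of a timepoint were then pooled into 1 droplet library of 3′ reads per timepoint, and each cell was assigned back to its donor by genotype. The labels list 2 runs at P0, of which run 1 was analysed here. Timepoint and library therefore cannot be told apart, and a cell that was lost during plating cannot be told apart from a cell that changed its RNA.

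Macrophages are the resident phagocytes of muscle. Those of long-standing tissue residence clear debris, recycle iron and carry scavenger receptors such as CD163, MRC1 and LYVE1, while monocytes that enter from blood bring inflammatory and antibacterial genes. Both present peptide antigen on MHC class II molecules, depend on colony-stimulating factor 1 for survival, and after injury secrete chemokines, proteases and growth factors that act on satellite cells (SCs) and on fibro-adipogenic progenitors (FAPs), the matrix-producing mesenchymal cells of muscle.

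Unique molecular identifiers (UMIs, 1 per captured transcript) were summed per donor over the labelled cells wherever a donor had at least 10 of them. This gave 10 muscle sums of 13 to 121 cells and 77392 to 693673 UMIs, and 7 P0 sums of 12 to 29 cells and 87573 to 251092 UMIs, from 3 adults and 4 calves. The 2 other donors with labelled cells at P0 held 16 cells together and were left out. Levels are given as counts per 1000000 UMIs of a donor's sum (CPM), scaled by the normalisation factor of that sum. Changes are given as the log2 fold change P0 against muscle (log2FC) ± its standard error. A gene was called when its adjusted p was below 0.05 and its absolute log2FC above 1. The n is 10 donors in muscle and 7 at P0 unless another is given. A labelled cell held a median of 6108 UMIs and 2039 genes in muscle and 7568 UMIs and 2324 genes at P0, with 3.33% and 2.19% of UMIs on mitochondrial genes. The median FAP gained far more, from 6213 UMIs to 24188. Genotype doublets were 8.11% of all barcodes in the muscle library and 39.4% at P0, and only singlets carry a label. The 2 libraries shared 7 barcodes, of which 1 belonged to a labelled macrophage and 0 to macrophages in both.

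The label was checked against 15 macrophage markers, among them PTPRC, CD14, CD68, CSF1R, TYROBP, MRC1 and CD163. Their summed level was 8286 to 12381 CPM in the muscle sums (median 10423) and 6210 to 9473 CPM at P0 (median 6855), against 92.1 and 30.3 CPM in FAPs of the same libraries, and none was at 0 at either timepoint. Of the 15, 8 were called lower at P0 and 1 higher, and 6 and 1 without the FAP-rich cells defined below. The pan-myeloid adaptor TYROBP was at 866 to 1859 CPM (median 1286) in muscle and 941 to 1587 CPM (median 1126) at P0 (log2FC -0.21, not called). The leukocyte phosphatase PTPRC was lower with all labelled cells (log2FC -1.46 ± 0.26, adjusted p = 5.11e-05) and not called without the FAP-rich cells defined below (log2FC -0.94 ± 0.25, adjusted p = 0.00209). The 10 FAP markers, however, summed to 132 to 1079 CPM in muscle (median 175) and to 1813 to 3018 CPM at P0 (median 2193), and all 7 of them that could be tested were called higher. Markers of SCs, endothelial cells, mural cells, glia and lymphocytes stayed low, with medians of 4.30 to 156 CPM per list in muscle and 11.3 to 110.2 CPM at P0. The 6 neutrophil markers did not, with a median sum of 196 CPM in muscle and 6720 CPM at P0, and are described with the monocyte genes below.

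This FAP signal was not spread evenly over the P0 cells. Of the 141 labelled cells, 52 (36.9%, holding 40.7% of the UMIs and 25 to 50% of the cells of each donor) had more than 0.2% of their UMIs on the 10 FAP markers, a level that 96.3% of P0 FAPs exceeded and only 6 of 403 muscle macrophages (1.49%). These FAP-rich cells had a median of 0.488% of UMIs on FAP markers and 0.171% on macrophage markers, whereas the other 89 cells, here FAP-poor, had 0.0736% and 1.08%. The muscle macrophages had 0.0130% on FAP markers and 1.05% on macrophage markers. FAPs themselves had a median of 4.95% on FAP markers in muscle and 0.640% at P0, so the 0.2% line lies nearer to the FAP level at P0. Without the FAP-rich cells the 10 FAP markers still summed to a mean of 644 CPM at P0, against 171 CPM in muscle. The 1 of them that could be tested was still called higher. How much this remaining FAP signal adds to the values without the FAP-rich cells was not tested. MMP9, given as 1 example, was at 13643 CPM in the pooled FAP-poor cells, 2602 CPM in the FAP-rich cells and 13.8 CPM in FAPs. All these cells were labelled from their RNA, so this value does not tell what the FAP-rich cells are. The 0.2% line was set after these values were seen, and 28 P0 cells lay between 0.1 and 0.3%. What the FAP-rich cells are was not tested. Counts of gene lists are therefore given for all labelled cells and again without the FAP-rich cells, with the value of a gene wherever leaving them out changed its call, where sums of at least 5 cells kept 10 muscle and 8 P0 donors.

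**Figure D1:**
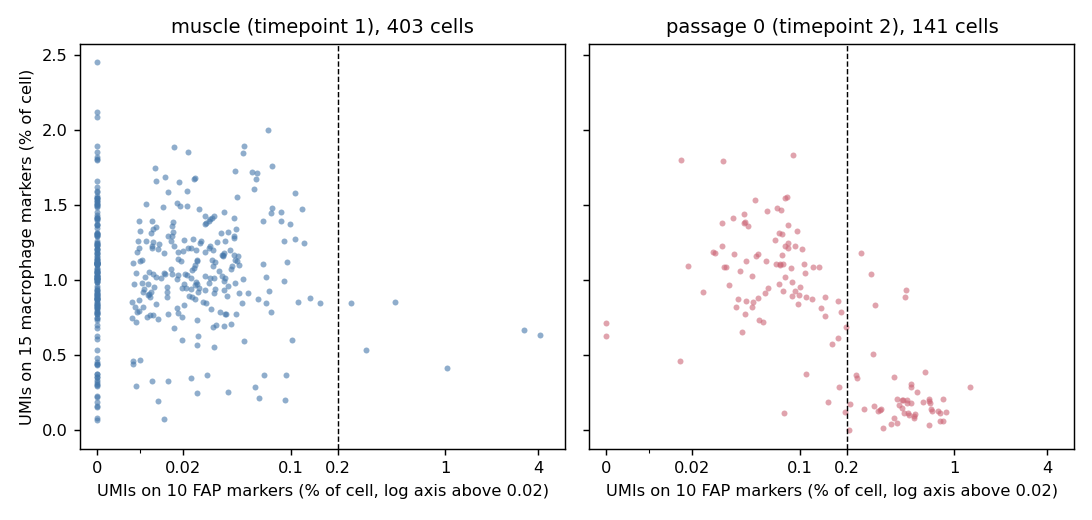
Each point is one cell labelled monocyte/macrophage, with the percentage of its UMIs on 10 FAP markers (x axis, logarithmic above 0.02%) and on 15 macrophage markers (y axis), in muscle (left, 403 cells) and at P0 (right, 141 cells). The dashed line at 0.2% separates the 52 FAP-rich P0 cells, most of them low in macrophage markers, from the 89 FAP-poor ones, which lie at the level of the muscle cells on the y axis.

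Across all labelled cells 2896 genes could be tested, and 407 were called higher at P0 (14.1%) and 594 lower (20.5%). All 7 donors with both sums moved the same way for 378 and 546 of these genes. Without the FAP-rich cells 1770 genes were tested, 230 were called higher (13%) and 348 lower (19.7%). Sums of at least 10 such cells kept only 4 P0 donors, and there 3305 genes were tested, 383 higher and 665 lower. Unless this minimum of 10 is named, values without the FAP-rich cells are those at 5 cells per sum. Among the called genes that could be tested both ways at 5 cells per sum, 186 of 227 higher and 316 of 375 lower were called again, and 0 were called in the opposite direction. The ranges of the 2 timepoints did not overlap for 375 of the tested genes on the higher side (12.9%) and 432 on the lower (14.9%). The median log2FC of all tested genes was -0.05, and 0.01 without the FAP-rich cells. The shares called over all tested genes, 14.1% higher and 20.5% lower (13% and 19.7% without the FAP-rich cells), are the background for the counts of each gene list below.

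The gene list with the lowest median change was that of the MHC class II genes, the machinery that loads and displays peptide to helper T cells. Of 12 tested genes of antigen presentation 9 were lower and 0 higher at P0 (median log2FC -7.30, or -7.15 with a gene of 0 counts set to its bound), and without the FAP-rich cells 8 were lower and 1 higher (median -6.47). CD74, the invariant chain that escorts class II molecules, was at 7398 to 14636 CPM (median 10178) in muscle and 0 to 55.6 CPM (median 3.98) at P0, so that the 2 ranges did not overlap (log2FC -9.45 ± 0.46, adjusted p = 3.64e-11). The fall was as plain without the FAP-rich cells (log2FC -8.83 ± 0.50, adjusted p = 8.29e-11). BOLA-DRA, the class II alpha chain, was at 4012 to 8683 CPM (median 6849) in muscle and 0 to 75.9 CPM (median 0) at P0, and 5 of the 7 P0 sums held none of it (log2FC -8.62 ± 0.56, adjusted p = 1.57e-09). BOLA-DMA and BOLA-DMB, which exchange peptide on class II molecules, followed. BOLA-DMB went from 395 to 779.5 CPM (median 622) to 0 counts in all 7 P0 sums, which is at least 224-fold lower at P0, adjusted p = 2.77e-15, taking 3 counts over the P0 sums as the limit. BOLA-DMA kept 1 count at P0, a ratio of 549 (95% exact interval 98.3 to 21687), adjusted p = 1.16e-16. Such intervals, here and below, pool the counts of all donors and cover counting error only, not differences between animals. The size of these falls rested on which donors were counted. Of the 2 donors left out for their few cells, donor 2 (7 cells) held 82 counts of CD74 (689.8 CPM), 36 of BOLA-DRA (303 CPM), 10 of BOLA-DMB (84.1 CPM) and 4 of BOLA-DMA (33.6 CPM), while donor 8 (9 cells) held 0, 0, 0 and 1. With sums of at least 5 cells, which count both, the log2FC was -7.11 for CD74, -7.34 for BOLA-DRA, -6.31 for BOLA-DMB and -6.68 for BOLA-DMA, still called lower. Without donor 10, which held the most of CD74 and BOLA-DRA among the 7 P0 sums, the log2FC was -10.60 and -10.42, and without donor 5, which held the 1 count of BOLA-DMA, BOLA-DMA was at least 162-fold lower. The beta chain genes BOLA-DQB (a ratio of 698 (95% exact interval 125 to 27583), adjusted p = 3.63e-06) and BLA-DQB (log2FC -8.11 ± 0.92, adjusted p = 1.22e-06) are near copies of one another, so that the split of reads between them is uncertain, but both were lower in all 7 donors. In muscle the levels of BOLA-DQB and BLA-DQB varied widely between animals, from 80.6 to 1343 CPM and from 302 to 8741 CPM.

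CD83 and CD86, surface proteins of cells that stimulate T cells, were lower as well. CD83, which stabilises class II at the surface, was at 716 to 1548 CPM (median 895) in muscle and 0 to 23.9 CPM (median 5.06) at P0, log2FC -6.49 ± 0.37, adjusted p = 3.46e-12, and CD86, the ligand of CD28, at 132 to 270.5 CPM (median 192) in muscle and 0 to 28 CPM (median 6.56) at P0, log2FC -3.98 ± 0.31, adjusted p = 2.09e-11. The protease CTSS, which trims the invariant chain, was called with all cells (log2FC -1.23 ± 0.16, adjusted p = 3.64e-07) but not without the FAP-rich cells (log2FC -0.74 ± 0.16, adjusted p = 0.000192). The lysosomal thiol reductase IFI30 was at 228 to 710.3 CPM (median 429) in muscle and 258 to 554 CPM (median 426) at P0 and the endopeptidase LGMN at 209.8 to 676 CPM (median 406) in muscle and 136 to 518 CPM (median 431) at P0, overlapping ranges in both cases, and neither was called. CD40, the receptor through which T cells activate macrophages, was not called with all cells (log2FC 0.75 ± 0.24, adjusted p = 0.00789) but was called higher without the FAP-rich cells (log2FC 1.27 ± 0.25, adjusted p = 7.74e-05), though not at 10 cells per sum (log2FC 0.90). Of 16 dendritic cell genes BATF3 alone reached the level needed for a test and was lower (log2FC -2.41 ± 0.23, adjusted p = 8.89e-10, and log2FC -1.95 ± 0.22, adjusted p = 1.03e-08 without the FAP-rich cells).

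**Figure D2:**
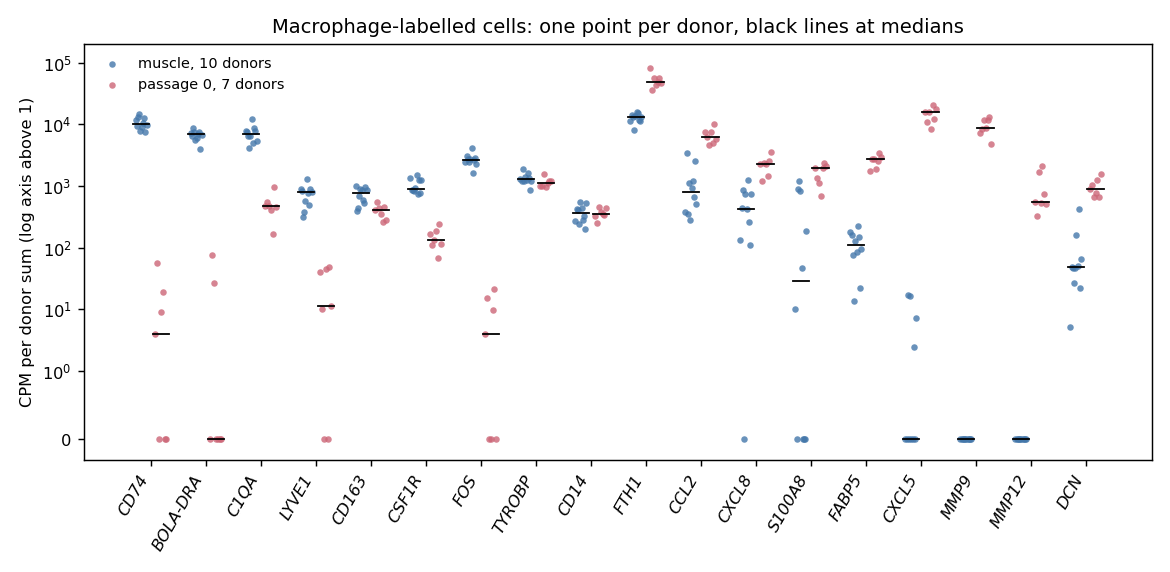
Level of 18 genes (CPM, logarithmic above 1) in the macrophage sums of each donor, muscle (blue, 10 donors) and P0 (red, 7 donors), with a black line at the median of each group. CD74, BOLA-DRA, FOS, CSF1R and C1QA separate completely downwards, FTH1, CCL2, FABP5, CXCL5, MMP9, MMP12 and DCN separate completely upwards, and TYROBP, CD14 and CD163 overlap between the timepoints.

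Genes of the resident macrophage programme were lower almost without exception, 15 of 16 tested and 0 higher (median log2FC -3.14), and 13 of 14 without the FAP-rich cells (median -2.51). LYVE1, the hyaluronan receptor of perivascular macrophages, was at 309 to 1269 CPM (median 781) in muscle and 0 to 49 CPM (median 11.3) at P0, without overlap (log2FC -5.03 ± 0.49, adjusted p = 1.17e-07, and log2FC -4.20 ± 0.46, adjusted p = 2.71e-07 without the FAP-rich cells). The phosphatidylserine receptor TIMD4 and the secreted scavenger protein CD5L, both long known from resident macrophages, went to 0 counts in every P0 sum, from 54.8 to 303 CPM (median 111) and 17.2 to 1313 CPM (median 189) in muscle. TIMD4 was thus at least 59.6-fold lower at P0, adjusted p = 3.72e-06, and CD5L at least 194-fold lower at P0, adjusted p = 0.00306. The limit for CD5L falls to 85.7-fold without donor 5, which held the highest level, and CD5L was not called with sums of at least 20 cells (adjusted p = 0.0673). The lectin CD209 kept a single count (a ratio of 327 (95% exact interval 58.5 to 12937), adjusted p = 3.5e-11) and the phospholipid transfer protein PLTP fell from 196 to 626 CPM (median 505) to 0 to 26.6 CPM (median 6.56), log2FC -5.95 ± 0.40, adjusted p = 2.55e-11. The iron exporter SLC40A1 (ferroportin) was at 153 to 657 CPM (median 369) in muscle and 0 to 15.2 CPM (median 0) at P0, log2FC -5.74 ± 0.51, adjusted p = 1.4e-08.

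Other resident genes fell by less and stayed well above FAP levels. The folate receptor FOLR2 was at 363 to 1529 CPM (median 807) in muscle and 45.2 to 357 CPM (median 192) at P0 (log2FC -2.10 ± 0.31, adjusted p = 1.21e-05) and the mannose receptor MRC1 at 349 to 998 CPM (median 677) in muscle and 147 to 266 CPM (median 203) at P0 (log2FC -1.76 ± 0.20, adjusted p = 2e-08), against 0.0954 and 0.152 CPM in P0 FAPs. Both were called lower again without the FAP-rich cells (log2FC -1.50 ± 0.26, adjusted p = 3.08e-05, and log2FC -1.21 ± 0.20, adjusted p = 8e-06). Coagulation factor F13A1 (log2FC -1.71 ± 0.37, adjusted p = 0.000768) and the scavenger receptor STAB1 (log2FC -1.98 ± 0.28, adjusted p = 4.13e-06) were lower with ranges that overlapped. The call of F13A1 was lost where the FAP-rich cells were left out and sums needed 10 cells (log2FC -0.66, adjusted p = 0.0199). CD163, the haemoglobin scavenger receptor, was the one tested member not called. It was at 394 to 1013 CPM (median 769.9) in muscle and 264 to 556 CPM (median 402) at P0, log2FC -0.87 ± 0.20, adjusted p = 0.000522, and without the FAP-rich cells at 396 to 1039 CPM (median 475) at P0, log2FC -0.34 ± 0.21, adjusted p = 0.163. The selenium carrier SELENOP (log2FC -3.16 ± 0.38) and TXNIP (log2FC -2.81 ± 0.28) fell as well, but by less than in FAPs, where SELENOP went from 2453 to 25.4 CPM and TXNIP from 2061 to 19.9 CPM (difference of the 2 changes 3.61, adjusted p = 2.49e-07, and 4.01, adjusted p = 3.87e-10).

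Complement genes showed a similar picture, with 7 of 12 tested lower and 1 higher, and 6 and 1 of 10 without the FAP-rich cells. The 3 chains of C1q, the recognition molecule of the classical pathway that macrophages make in quantity, fell together. C1QA was at 4153 to 12069.6 CPM (median 6924) in muscle and 163 to 959 CPM (median 465) at P0 (log2FC -3.84 ± 0.32, adjusted p = 2.17e-08), C1QB at 1788 to 6136 CPM (median 3885) in muscle and 24 to 233 CPM (median 98) at P0 (log2FC -5.08 ± 0.38, adjusted p = 7.44e-09), and C1QC at 1626 to 8011 CPM (median 4227) in muscle and 119.8 to 409.6 CPM (median 157) at P0 (log2FC -4.32 ± 0.36, adjusted p = 2.52e-08). None of the 3 overlapped between timepoints, and all 3 were lower without the FAP-rich cells, C1QA by log2FC -3.41 ± 0.27, adjusted p = 5.51e-09. Factor D (CFD), the protease that starts the alternative pathway, was at 3283 to 7516 CPM (median 5019.9) in muscle and 15.2 to 67.8 CPM (median 43.1) at P0, log2FC -6.93 ± 0.27, adjusted p = 2.97e-14. The receptor CR2 went from 246 to 876 CPM (median 342) to 0 counts, at least 138-fold lower at P0, adjusted p = 1.73e-07, and the C3a receptor C3AR1 kept 3 counts, a ratio of 94.5 (95% exact interval 32.2 to 459), adjusted p = 1.71e-13. In contrast CD55, which protects the cell's own surface from complement, was at 47.2 to 226 CPM (median 115) in muscle and 231 to 314 CPM (median 249) at P0 and was higher in all 7 donors (log2FC 1.06 ± 0.29, adjusted p = 0.00308, and log2FC 1.45 ± 0.28, adjusted p = 0.00012 without the FAP-rich cells). With all cells CD55 stood close to the fold threshold, and it was not called by DESeq2, with thinned sums (log2FC 0.97), with 5 cells per sum (log2FC 0.95) or without donor 1, 5 or 10 (log2FC 0.91 to 0.99). The C5a receptor C5AR1 (228 to 479.5 CPM (median 372) in muscle and 169.6 to 459 CPM (median 278) at P0) and properdin, CFP (97.2 to 316 CPM (median 251) in muscle and 90.4 to 319.7 CPM (median 203) at P0), were not called.

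Among receptors for antibody, lipids and microbial products 5 of 16 tested genes were lower and 2 higher (3 and 2 of 11 without the FAP-rich cells). Of all tested genes 20.5% were lower and 14.1% higher (19.7% and 13% without the FAP-rich cells). The Fc receptors did not move as one. FCGR3A fell from 76.7 to 585 CPM (median 393) to 4.79 to 25.3 CPM (median 7.97) (log2FC -4.91 ± 0.49, adjusted p = 9.63e-08) and the inhibitory FCGR2B from 53.8 to 207 CPM (median 98.4) to 6.56 to 47.8 CPM (median 25.3) (log2FC -2.17 ± 0.34, adjusted p = 4.17e-06), whereas the high-affinity receptor FCGR1A was at 121 to 463 CPM (median 303) in muscle and 354 to 819.5 CPM (median 462) at P0, not called with all cells (log2FC 0.67 ± 0.24, adjusted p = 0.0198) but higher without the FAP-rich cells (log2FC 1.29 ± 0.23, adjusted p = 5.63e-05, 8 of 8 donors), though not called at 10 cells per sum (log2FC 0.98). The fatty acid and oxidised lipoprotein receptor CD36 rose from 0 to 43.8 CPM (median 22.6) to 88.8 to 472 CPM (median 201), log2FC 3.30 ± 0.34, adjusted p = 2.76e-08, with no overlap. Without the FAP-rich cells it fell short of the count needed for a test at 5 cells per sum, where its P0 range was 62.1 to 737 CPM (median 357), and was called higher at 10 (log2FC 3.38, adjusted p = 4.64e-07). TLR2 was higher (log2FC 1.08 ± 0.24, adjusted p = 0.00025) and TLR4, which binds endotoxin, lower (log2FC -1.53 ± 0.29, adjusted p = 4.39e-05). TLR2 fell below the fold threshold with 5 cells per sum (log2FC 0.89) and without donor 7 (log2FC 0.93), and TLR4 without the FAP-rich cells at 10 cells per sum (log2FC -0.95). CD14 (197 to 543 CPM (median 366) in muscle and 253 to 446 CPM (median 345) at P0) and the Fc receptor gamma chain FCER1G (1008 to 2364 CPM (median 1526) in muscle and 1108 to 1785 CPM (median 1360.4) at P0) were not called.

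Receptors through which macrophages sense chemoattractants, cytokines and lipid mediators were lower in 12 of 16 tested genes and higher in 0 (median log2FC -2.72), and in 9 and 0 of 14 without the FAP-rich cells (median -2.45). CSF1R, the receptor of the macrophage survival factor, was at 726 to 1479 CPM (median 897) in muscle and 67.1 to 238 CPM (median 131) at P0, without overlap (log2FC -2.85 ± 0.22, adjusted p = 4.77e-11, and log2FC -2.36 ± 0.17, adjusted p = 2.31e-12 without the FAP-rich cells). CX3CR1, the fractalkine receptor, went from 60.1 to 222 CPM (median 140.4) to 0 counts (at least 56-fold lower at P0, adjusted p = 1.55e-09). The oxysterol receptor GPR183 (log2FC -5.80 ± 0.41, adjusted p = 1.43e-10) and the CXCL12 receptor CXCR4 (log2FC -5.07 ± 0.34, adjusted p = 1.42e-11) fell in all 7 donors. CCR1 was not called, at 56.3 to 131 CPM (median 93.5) in muscle and 67.8 to 91 CPM (median 75.9) at P0. Of the myeloid transcription factors 7 of 13 tested were lower and 1 higher, and 4 and 1 of 9 without the FAP-rich cells. Beside BATF3, these were led by KLF4 (log2FC -4.15 ± 0.28, adjusted p = 3.46e-12), MEF2C (log2FC -3.60 ± 0.40, adjusted p = 1.62e-08), BHLHE40 (log2FC -3.26 ± 0.56, adjusted p = 6.18e-05) and ID2 (log2FC -2.74 ± 0.27, adjusted p = 1.03e-08). SPI1 (PU.1), the lineage-determining factor, was at 186 to 509 CPM (median 381) in muscle and 110.2 to 204 CPM (median 147) at P0, log2FC -1.26 ± 0.18, adjusted p = 9.35e-07, and was not called without the FAP-rich cells (log2FC -0.69 ± 0.17, adjusted p = 0.000776). CEBPD was the 1 higher factor (log2FC 1.27 ± 0.19, adjusted p = 4.11e-06), and FAPs held it at 1297 CPM at P0.

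**Figure D3:**
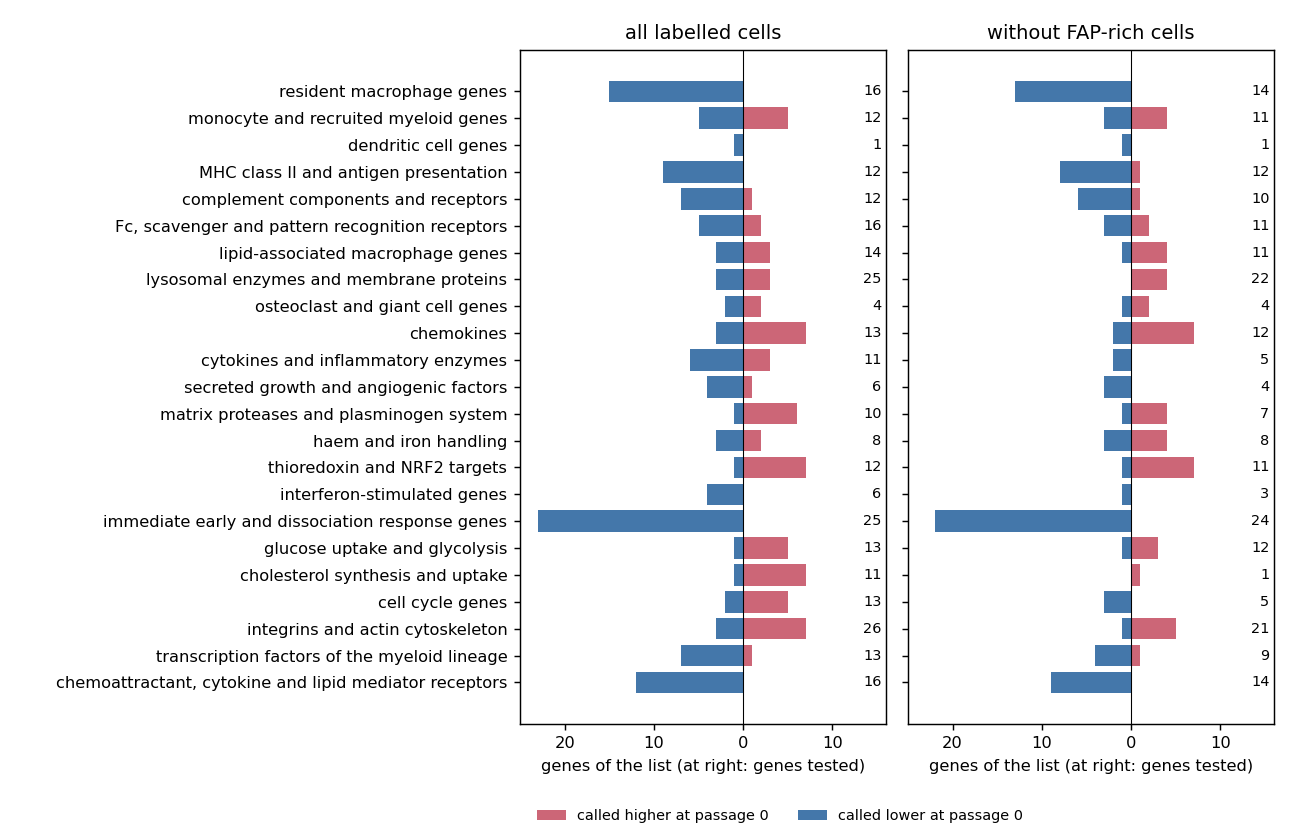
Number of genes called higher (red, to the right) or lower (blue, to the left) at P0 in each of 23 gene lists, for all labelled cells (left panel) and without the FAP-rich cells at 5 cells per sum (right panel), with the number of tested genes at the right edge. Resident, MHC class II, complement, chemoattractant receptor and immediate early genes lie mostly to the left in both panels, and chemokines and thioredoxin and NRF2 targets mostly to the right. Fewer genes reach a test in the right panel. Of the cholesterol genes 7 of 11 tested are higher in the left panel and 1 of 1 in the right. Of the cell cycle genes 5 of 13 are higher in the left panel and 0 of 5 in the right.

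Monocyte genes split in 2. Of 12 tested, 5 were higher and 5 lower, and without the FAP-rich cells 4 of 11 were higher and 3 lower. On the lower side stood CX3CR1 and the antibacterial enzyme lysozyme (LYZ), a ratio of 598 (95% exact interval 107 to 23618), adjusted p = 0.000195. Cattle hold several lysozyme genes of like sequence, and LYZ in muscle ran from 75.2 to 2780.1 CPM (median 215). On the higher side stood the calcium-binding alarmins of neutrophils and monocytes. S100A8 was at 0 to 1183 CPM (median 28.7) in muscle and 693 to 2310.5 CPM (median 1945) at P0, log2FC 2.49 ± 0.96, adjusted p = 0.0321, and S100A9 at 0 to 1475 CPM (median 32.8) in muscle and 1030.1 to 2310.5 CPM (median 1964) at P0, log2FC 2.36 ± 0.95, adjusted p = 0.0382. Both were higher in all 7 donors, yet the muscle donors alone spanned the range from 0 to above the lowest P0 donor. The calls depended on the donors and the fit. S100A8 was not called when donor 1, 5, 6, 7, 9 or 10 was left out (log2FC 2.22 to 2.49, adjusted p = 0.0502 to 0.0710) or S100A9 when donor 1, 5, 6, 7, 8, 9 or 10 was (log2FC 2.14 to 2.43, adjusted p = 0.0510 to 0.0756), and DESeq2 called neither (adjusted p = 0.0844 and 0.0597). Both were called with the donor as a block (log2FC 4.81, adjusted p = 0.0137, and log2FC 4.64, adjusted p = 0.0176), also without the FAP-rich cells (log2FC 5.45, adjusted p = 0.00458, and log2FC 5.48, adjusted p = 0.00433). S100A12 was at 3.76 to 2890.4 CPM (median 144) in muscle and 1732 to 5213 CPM (median 3389) at P0 and missed the threshold with all cells (log2FC 1.98 ± 0.92, adjusted p = 0.0694). With the donor as a block it was called (log2FC 4.03, adjusted p = 0.0333), as it was without the FAP-rich cells (log2FC 2.60 ± 0.91, adjusted p = 0.0186), though not at 10 cells per sum (log2FC 2.22, adjusted p = 0.133). These 3 genes are also neutrophil markers. Of the other neutrophil markers, CSF3R had counts in muscle and 0 in every P0 sum, and CXCR2 had 0 at both timepoints. PGLYRP1 went the other way, with 0 counts in muscle and some at P0, too few for a test. The 6 markers summed to 5.01 to 5255 CPM in muscle (median 196), 3472 to 9445 CPM at P0 (median 6720) and 77.3 CPM in P0 FAPs. Their part in the result was not tested. S100A4 rose without overlap, from 944 to 5317 CPM (median 2945) to 6625 to 11694 CPM (median 8845) (log2FC 1.53 ± 0.27, adjusted p = 9.96e-05). IL1R2, a decoy receptor for interleukin 1, was higher (log2FC 3.95 ± 0.53, adjusted p = 5.45e-06), but P0 FAPs held as much of it, 221 CPM. VCAN was called with all cells (log2FC 2.33 ± 0.69, adjusted p = 0.00773) and not without the FAP-rich cells (log2FC 1.49 ± 0.78, adjusted p = 0.1).

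Chemokines, secreted proteins that draw leukocytes, were higher in 7 of 13 tested genes and lower in 3 (median log2FC 1.63), and in 7 and 2 of 12 without the FAP-rich cells (median 2.34). CXCL5, a neutrophil attractant, went from 0 to 17.2 CPM (median 0) to 8436 to 20307 CPM (median 15676), log2FC 11.59 ± 0.44, adjusted p = 1.43e-12, but FAPs held it too, at 6958 CPM on average at P0, and the difference between the 2 cell types' changes was not called (0.94, adjusted p = 0.424). CCL3 and CCL4, attractants of monocytes and T cells, were scarcely present in FAPs, at 4.70 and 0.933 CPM at P0. In macrophages CCL3 was at 0 to 316 CPM (median 114) in muscle and 2114 to 5251 CPM (median 2691) at P0, log2FC 4.68 ± 0.49, adjusted p = 4.67e-07, and CCL4 at 91.5 to 1041 CPM (median 251) in muscle and 936 to 3222 CPM (median 1589) at P0, log2FC 2.41 ± 0.49, adjusted p = 0.000449. CCL2, the monocyte attractant, was at 279.7 to 3441 CPM (median 787) in muscle and 4648 to 10110.1 CPM (median 6231) at P0, with no overlap (log2FC 2.56 ± 0.48, adjusted p = 0.000215, and log2FC 2.99 ± 0.47, adjusted p = 2.62e-05 without the FAP-rich cells). CXCL2 (log2FC 3.41 ± 0.54, adjusted p = 4.06e-05), CXCL8 (log2FC 2.13 ± 0.51, adjusted p = 0.00168) and CCL8 (log2FC 1.63 ± 0.57, adjusted p = 0.0193) completed the 7. CCL8 was not called in the 7 donors with both sums alone (log2FC 1.40, adjusted p = 0.0735). The lower ones were CCL24, CCL16 (log2FC -4.10 ± 0.95, adjusted p = 0.00125) and CXCL16 (log2FC -1.37 ± 0.31, adjusted p = 0.000793). The neutrophil attractants GRO1 (538 to 3842 CPM (median 2916) in muscle and 1229 to 2973 CPM (median 1868) at P0) and CXCL3 (445 to 4130.1 CPM (median 2172) in muscle and 1634 to 3787 CPM (median 1876) at P0) were already high in muscle and were not called.

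Of the cytokines and lipid mediator enzymes 6 of 11 tested were lower and 3 higher (median log2FC -1.34). Without the FAP-rich cells only 5 could be tested, of which 2 were lower and 0 higher (median -0.79). TNF was at 67.9 to 336 CPM (median 128) in muscle and 0 to 22.6 CPM (median 7.97) at P0, without overlap (log2FC -4.15 ± 0.56, adjusted p = 2.26e-06, and log2FC -3.91 ± 0.60, adjusted p = 7.24e-06 without the FAP-rich cells). ALOX5 (log2FC -4.42 ± 0.45, adjusted p = 2.4e-09) and its partner ALOX5AP (log2FC -3.98 ± 0.29, adjusted p = 5.13e-12), which start leukotriene synthesis, fell together, as did the interleukin 1 antagonist IL1RN (log2FC -4.32 ± 0.83, adjusted p = 0.000226) and IL10 (log2FC -3.19 ± 0.54, adjusted p = 4.95e-05). IL1B was at 43.8 to 429 CPM (median 132) in muscle and 40.5 to 475 CPM (median 195) at P0 and was not called (log2FC 0.39 ± 0.51, adjusted p = 0.519). IL6 went from 3 counts in all muscle sums to 142 to 916 CPM (median 374), a ratio of 349 (95% exact interval 119 to 1699), adjusted p = 4.96e-10, at a level that P0 FAPs shared (394 CPM). In P0 sums without the FAP-rich cells it was at 50.9 to 1569.5 CPM (median 298), not tested at 5 cells per sum and called higher at 10 (adjusted p = 7.68e-09). Secreted growth factors were lower in 4 of 6 tested genes and higher in 1, and in 3 and 0 of 4 without the FAP-rich cells. HBEGF, a ligand of the EGF receptor, was at 85.1 to 306 CPM (median 151) in muscle and 0 to 20.2 CPM (median 11.3) at P0 (log2FC -3.79 ± 0.44, adjusted p = 2.19e-07), PDGFB, which acts on mesenchymal cells, at 51.1 to 208 CPM (median 110.1) in muscle and 5.06 to 49 CPM (median 15.9) at P0 (log2FC -2.68 ± 0.39, adjusted p = 1.92e-06), and IGF1, a growth factor for muscle cells, at 23.3 to 175 CPM (median 60.3) in muscle and 0 to 19.9 CPM (median 0) at P0 (log2FC -3.41 ± 0.55, adjusted p = 7.86e-06). CSF1 itself was the 1 higher member (log2FC 4.46 ± 0.41, adjusted p = 2.15e-08), and it lay at 84.6 CPM in the pooled FAP-poor cells, 711 CPM in the FAP-rich cells and 725 CPM in FAPs. It was not tested without the FAP-rich cells at 5 cells per sum and was called higher at 10 (log2FC 2.88, adjusted p = 6.76e-06).

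Matrix proteases and the plasminogen system were higher in 6 of 10 tested genes and lower in 1 (median log2FC 1.19), and in 4 and 1 of 7 without the FAP-rich cells. MMP9 (ENSBTAG00000020676), the type IV collagenase, had 0 counts in all 10 muscle sums and 4805 to 13142 CPM (median 8552) at P0. This is at least 8472-fold higher at P0, adjusted p = 4.05e-08, against 3 counts over the muscle sums, and without the FAP-rich cells the P0 range was 6622 to 22184 CPM (median 12884). The macrophage elastase MMP12 also went from 0 counts to 329 to 2070.0 CPM (median 558), at least 848-fold higher at P0, adjusted p = 0.000118, and so did the urokinase inhibitor SERPINB2, to 85.2 to 853 CPM (median 441), at least 451-fold higher at P0, adjusted p = 0.000177. FAPs at P0 held 13.4, 0.580 and 4.79 CPM of these 3 genes. MMP14, the membrane-bound activator of other proteases, was higher as well (log2FC 1.12 ± 0.29, adjusted p = 0.00186, and log2FC 1.48 ± 0.27, adjusted p = 3.37e-05 without the FAP-rich cells). The gelatinase MMP2 was called with all cells (log2FC 5.14 ± 0.51, adjusted p = 1.76e-07) and lay at 154 CPM in the pooled FAP-poor cells, 764 CPM in the FAP-rich cells and 882 CPM in FAPs. Its log2FC was 6.18 (adjusted p = 2.76e-11) without the FAP-rich cells at 10 cells per sum. The muscle level of MMP2 was highest in donor 7, at 46.1 CPM with the next donor at 9.14 CPM. That donor held 1 of the FAP-rich muscle cells, and without donor 7 the log2FC with all labelled cells was 6.74. The part of the muscle level in the larger log2FC was not tested. Urokinase, PLAU, was lower (log2FC -1.43 ± 0.32, adjusted p = 0.000389). Of the osteoclast genes only 4 could be tested, of which 2 were higher and 2 lower, beside 14.1% and 20.5% of all tested genes, and 2 and 1 without the FAP-rich cells. CTSK, the collagen-cleaving cathepsin, rose with MMP9, from 177 to 439 CPM (median 359.8) to 409.6 to 1707 CPM (median 861) (log2FC 1.54 ± 0.23, adjusted p = 8.56e-06), while tartrate-resistant acid phosphatase, ACP5, was lower with all cells (log2FC -1.68 ± 0.17, adjusted p = 3.33e-09) and not called without the FAP-rich cells (log2FC -0.76 ± 0.23, adjusted p = 0.00462), though called lower at 10 cells per sum (log2FC -1.24), and CKB was lower (log2FC -2.22 ± 0.44, adjusted p = 0.000314).

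Genes of haem and iron handling split, with 2 of 8 tested higher and 3 lower (median log2FC -0.08), beside 14.1% and 20.5% of all tested genes, and 4 and 3 of 8 without the FAP-rich cells (median 0.36). FTH1, the ferritin heavy chain, climbed from 8051 to 15793 CPM (median 13012) to 35385 to 82289.8 CPM (median 48608), log2FC 2.04 ± 0.15, adjusted p = 2.17e-09, and reached 45811 to 104878 CPM (median 73462) without the FAP-rich cells. The light chain FTL was at 3252 to 6148 CPM (median 4373) in muscle and 3636 to 10785 CPM (median 6553) at P0 and was called higher without those cells (log2FC 1.05 ± 0.21, adjusted p = 0.000313), though not at 10 cells per sum (log2FC 0.72). SLC11A1, which pumps iron out of the phagosome, was higher (log2FC 2.10 ± 0.42, adjusted p = 0.000391), whereas the exporter SLC40A1, the haem-degrading HMOX1 (log2FC -1.76 ± 0.53, adjusted p = 0.00829) and the ferritin autophagy receptor NCOA4 (log2FC -1.36 ± 0.20, adjusted p = 1.53e-06) were lower. HMOX1 was not called where the FAP-rich cells were left out and sums needed 10 cells (log2FC -1.53, adjusted p = 0.114). Among thioredoxin and NRF2 target genes 7 of 12 tested were higher and 1 lower (median log2FC 1.33), and 7 and 1 of 11 without the FAP-rich cells (median 1.51). SOD2, the mitochondrial superoxide dismutase, was at 11 to 199.8 CPM (median 64.2) in muscle and 1987 to 4386 CPM (median 2597) at P0 (log2FC 5.06 ± 0.34, adjusted p = 1.54e-09), thioredoxin, TXN, at 215 to 611 CPM (median 254) in muscle and 2114 to 3120.2 CPM (median 2282) at P0 (log2FC 3.03 ± 0.18, adjusted p = 5.96e-13), and GPX4, which reduces lipid peroxides, at 67.2 to 183 CPM (median 100.5) in muscle and 518 to 839 CPM (median 757) at P0 (log2FC 2.73 ± 0.16, adjusted p = 3.09e-14). GPX1 was the 1 lower member (log2FC -1.59 ± 0.24, adjusted p = 1.13e-05). FAPs at P0 held these rising genes at like levels, 2036 CPM of SOD2, 3474 CPM of TXN and 1241 CPM of GPX4.

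The 12 largest rises among genes with a symbol, at least 50 CPM at P0 and a rise in all paired donors included further genes of defence and metal binding. SAA3 (serum amyloid A) had 1 count in muscle and 707 to 3324 CPM (median 1962) at P0, a ratio of 5764 (95% exact interval 1034 to 227758), adjusted p = 1.24e-14. With the FAP-rich cells left out it was at 54 to 5221 CPM (median 2880.0) at P0, not tested at 5 cells per sum and called higher at 10 (adjusted p = 1.26e-13). The metallothioneins MT1E (ENSBTAG00000001595) and MT1A, which buffer zinc and share much of their sequence, reached 262 to 984 CPM (median 637) and 532 to 2167 CPM (median 1039.5), from 1 and 4 counts over all muscle sums. FAPs held more of both at P0, 1084 and 2202 CPM. CSTB (ENSBTAG00000018189), an inhibitor of cathepsins, was at 0 to 16.6 CPM (median 0) in muscle and 931 to 1737 CPM (median 1140.4) at P0 (log2FC 7.88 ± 0.36, adjusted p = 2.34e-13) and at 19.7 CPM in P0 FAPs. CYP3A4, a cytochrome of drug metabolism, went from 0 counts to 119 to 767 CPM (median 207) (at least 251-fold higher at P0, adjusted p = 0.000254, or at least 163-fold without donor 4), and TNFRSF6B, a soluble decoy receptor, from 0 to 13.4 CPM (median 0) to 366 to 667 CPM (median 518) (log2FC 7.60 ± 0.28, adjusted p = 3.55e-18). PTX3, a secreted pattern recognition molecule, was called with and without the FAP-rich cells (log2FC 7.82 ± 0.63, adjusted p = 1.86e-08, and log2FC 5.92 ± 0.37, adjusted p = 1.81e-13), but it was lowest in the cells poor in FAP markers, at 281 CPM in the pooled FAP-poor cells, 2239.7 CPM in the FAP-rich cells and 2242 CPM in FAPs.

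Genes of lipid-laden macrophages were higher in 3 of 14 tested and lower in 3, beside 14.1% and 20.5% of all tested genes, and in 4 and 1 of 11 without the FAP-rich cells. FABP5, a fatty acid carrier, rose from 13.4 to 220.3 CPM (median 111) to 1733 to 3389 CPM (median 2701), without overlap (log2FC 4.41 ± 0.30, adjusted p = 1.33e-09, and log2FC 5.01 ± 0.33, adjusted p = 3.43e-10 without the FAP-rich cells). The tetraspanin CD9 rose as well (log2FC 1.43 ± 0.20, adjusted p = 1.81e-06). Lipoprotein lipase, LPL, fell from 65.8 to 246 CPM (median 128) to 1 count (a ratio of 155 (95% exact interval 27.6 to 6135), adjusted p = 2.61e-11), and the surface glycoprotein CD52 fell (log2FC -5.67 ± 1.16, adjusted p = 0.000449). APOE was not called and differed widely between animals, at 0 to 1467 CPM (median 87.8) in muscle and 0 to 269 CPM (median 24) at P0. TREM2, SPP1 and GPNMB, which mark such cells in other tissues, were too low for a test. Of 25 tested lysosomal genes 3 were higher, 3 lower and 19 not called, and without the FAP-rich cells 4 of 22 were higher and 0 lower. ATP6V0D1, a subunit of the proton pump (log2FC 1.68 ± 0.15, adjusted p = 3.95e-10), CTSK and the carboxypeptidase CTSZ (log2FC 1.32 ± 0.18, adjusted p = 7.02e-07) were higher, all 3 also without the FAP-rich cells, where the falls of CTSS, PSAP (log2FC -0.66 ± 0.15, adjusted p = 0.000283) and MAN2B1 (log2FC -0.49 ± 0.19, adjusted p = 0.0228) were no longer called. CD63 (1034 to 1548 CPM (median 1176) in muscle and 1325 to 2288 CPM (median 1749) at P0) and CTSB (819.8 to 1677 CPM (median 1107) in muscle and 445 to 1534 CPM (median 717) at P0) were not called.

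Immediate early and dissociation response genes are known to be induced by tissue digestion. They were lower at P0 almost throughout. Of 25 tested 23 were lower and 0 higher (median log2FC -4.08), and 22 of 24 without the FAP-rich cells (median -4.10). FOS, a component of the AP-1 transcription factor, was at 1617 to 4115 CPM (median 2645) in muscle and 0 to 21 CPM (median 3.98) at P0, log2FC -8.32 ± 0.32, adjusted p = 3.05e-15. FOSB went from 452 to 987 CPM (median 800.1) to 0 to 11.3 CPM (median 4.79) (log2FC -7.28 ± 0.30, adjusted p = 3.27e-17), the phosphatase DUSP2 from 438 to 927 CPM (median 726) to 0 to 15.2 CPM (median 0) (log2FC -7.49 ± 0.34, adjusted p = 6.77e-16), and the nuclear receptor NR4A1 from 169 to 461 CPM (median 369) to 2 counts over the P0 sums (a ratio of 215 (95% exact interval 59.5 to 1782), adjusted p = 1.03e-14). The constitutive chaperone HSPA8 was at 1075 to 1823 CPM (median 1509.6) in muscle and 1549 to 1937 CPM (median 1687) at P0 and was not called. Of the interferon-stimulated genes 4 of 6 tested were lower with all cells, led by IFI6, at 363 to 1596 CPM (median 727) in muscle and 0 to 56.5 CPM (median 39.8) at P0 (log2FC -4.60 ± 0.48, adjusted p = 3.34e-07), with IRF9 (log2FC -1.78 ± 0.31, adjusted p = 1.29e-05) and IRF1 (log2FC -1.16 ± 0.38, adjusted p = 0.00972). PSMB9, an immunoproteasome subunit, was the fourth (log2FC -1.16 ± 0.33, adjusted p = 0.00489), and it was not called with the donor as a block (log2FC -0.79, adjusted p = 0.00147) or without the FAP-rich cells (log2FC -0.72 ± 0.34, adjusted p = 0.0694). IFI6 was the only one of 3 tested that was lower without them.

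For energy, sterol and cell cycle genes fewer could be tested and fewer were called higher without the FAP-rich cells. Whether their changes differed between the 2 settings was not tested. Among glycolysis genes 5 of 13 tested were higher and 1 lower, and 3 and 1 of 12 without those cells. PKM, the last enzyme of the pathway, rose from 121 to 413 CPM (median 231) to 1147 to 1413 CPM (median 1204) (log2FC 2.19 ± 0.16, adjusted p = 3.51e-12, and log2FC 2.11 ± 0.16, adjusted p = 5.11e-12 without the FAP-rich cells) and enolase, ENO1, from 493 to 1196 CPM (median 763) to 1558 to 2091 CPM (median 2007) (log2FC 1.29 ± 0.16, adjusted p = 8.75e-08). The glucose transporter SLC2A3 fell from 251 to 1006 CPM (median 552) to 25.3 to 112 CPM (median 59) (log2FC -3.27 ± 0.35, adjusted p = 2.04e-07). GAPDH was not called, at 995 to 2468 CPM (median 1449.6) in muscle and 1805 to 2389 CPM (median 1995) at P0. Of the cholesterol synthesis genes 7 of 11 tested were higher and 1 lower, with HMGCS1 (log2FC 3.56 ± 0.36, adjusted p = 1.46e-07) in front. HMGCS1 lay at 193 CPM in the pooled FAP-poor cells, 801 CPM in the FAP-rich cells and 909 CPM in FAPs, and without the FAP-rich cells FDPS alone could be tested at 5 cells per sum, where it was higher (log2FC 1.53 ± 0.25, adjusted p = 5.13e-06). HMGCS1 was higher at 10 cells per sum (log2FC 2.45, adjusted p = 0.000351). Of the cell cycle genes 5 of 13 tested were higher and 2 lower, and 0 and 3 of 5 without the FAP-rich cells. The proliferation genes CENPF (log2FC 2.64 ± 0.57, adjusted p = 0.000658) and TPX2 (log2FC 2.60 ± 0.38, adjusted p = 1.62e-06) were called higher with all cells. CENPF lay at 20.2 CPM in the pooled FAP-poor cells, 276 CPM in the FAP-rich cells and 302 CPM in FAPs, and neither reached a test without the FAP-rich cells. The cell cycle inhibitors CDKN1B (log2FC -3.38 ± 0.25, adjusted p = 6.36e-12) and CDKN1A (log2FC -2.28 ± 0.28, adjusted p = 4.82e-07) fell, with and without those cells.

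Adhesion and actin genes were higher in 7 of 26 tested and lower in 3, and in 5 and 1 of 21 without the FAP-rich cells. Of all tested genes 14.1% were higher and 20.5% lower (13% and 19.7% without the FAP-rich cells). The filament-capping protein CAPG rose from 36.6 to 131 CPM (median 64.1) to 207 to 446 CPM (median 315) (log2FC 2.17 ± 0.20, adjusted p = 6.69e-10, and log2FC 2.49 ± 0.22, adjusted p = 1.32e-10 without the FAP-rich cells). LCP1, the actin bundler of leukocytes, scarce in FAPs (1.25 CPM at P0), rose from 533 to 1307 CPM (median 766) to 1725 to 2655 CPM (median 1888) (log2FC 1.33 ± 0.14, adjusted p = 6.42e-09, and log2FC 1.95 ± 0.14, adjusted p = 3.13e-12 without the FAP-rich cells). The fibronectin receptor chain ITGA5 (log2FC 1.64 ± 0.26, adjusted p = 5.18e-06) and ACTN1 (log2FC 1.81 ± 0.24, adjusted p = 3.55e-07) were called with all cells and were not tested without the FAP-rich ones. The study names ITGA5 as a FAP marker gene, and how far the FAP-rich cells carry these 2 rises was not tested. The leukocyte integrin ITGB7 was lower (log2FC -2.23 ± 0.31, adjusted p = 5.19e-07). ACTB (4429.9 to 6959.5 CPM (median 5741) in muscle and 6514 to 9739 CPM (median 7726) at P0) and VIM (5589.8 to 12851 CPM (median 7304) in muscle and 5300.1 to 8486 CPM (median 6161) at P0) were not called.

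The share of cells with at least 1 UMI of a gene shows whether a change was carried by most cells or few. Each cell was thinned to 2000 UMIs, which left out 4 of 403 muscle cells and 5 of 141 P0 cells, and intervals are exact 95% binomial intervals that cover counting error only. CD74 was found in 94.5% (91.8 to 96.5%) of muscle macrophages and in 2.21% (0.457 to 6.31%) at P0, the latter 3 of 136 cells, and unthinned in 95.3% and 3.55%. C1QA was found in 77.9% (73.6 to 81.9%) and 38.2% (30 to 47%) of cells, LYVE1 in 42.6% (37.7 to 47.6%) and 6.62% (3.07 to 12.2%). CD163 went from 53.4% (48.4 to 58.4%) to 44.9% (36.3 to 53.6%), with overlapping intervals, and was at 58.4% (47.5 to 68.8%) in the FAP-poor cells. P0 FAPs, also thinned to 2000 UMIs, showed these 4 genes in at most 0.92% of cells. Unthinned, at a median of 24188 UMIs, P0 FAPs showed CD163 in 6.72% of cells and the others in at most 0.521%.

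In the other direction the gain was shared by most cells. MMP9 was seen in 0 of 399 muscle macrophages, which by the limit of 3 cells allows up to 0.752% of cells with a UMI, and in 87.5% (80.7 to 92.5%) at P0 against 2.67% of P0 FAPs. CCL2 went from 31.1% (26.6 to 35.9%) to 94.1% (88.7 to 97.4%) with 54.7% in P0 FAPs, CXCL8 from 21.6% (17.6 to 25.9%) to 80.1% (72.4 to 86.5%) with 13.5%, and FABP5 from 12.5% (9.45 to 16.2%) to 85.3% (78.2 to 90.8%) with 51.6%. Unthinned, the P0 shares were 88.7%, 95%, 91.5% and 96.5%. SPP1 was found in few cells at either time, 1.5% (0.554 to 3.24%) and 15.4% (9.82 to 22.6%), and in 5.23% of P0 FAPs. The proliferation marker MKI67 was in 16.9% (11 to 24.3%) of all P0 cells but in 5.62% (1.85 to 12.6%) of the FAP-poor ones, against 26.1% of P0 FAPs and 1% (0.274 to 2.55%) of muscle macrophages. BOLA-DRA behaved like CD74, at 93.5% (90.6 to 95.7%) and 1.47% (0.179 to 5.21%).

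**Figure D4:**
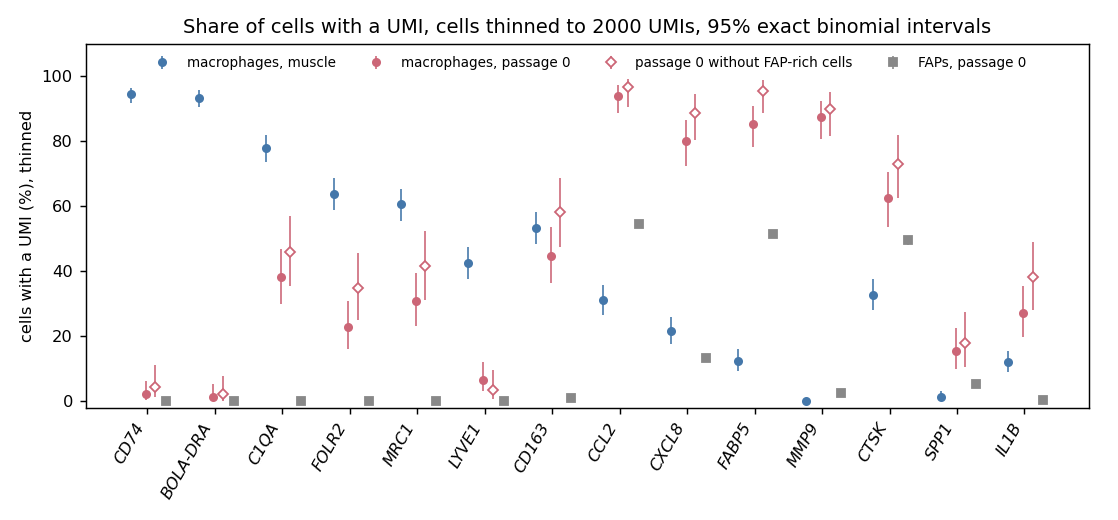
Percentage of cells with at least 1 UMI of 14 genes after thinning to 2000 UMIs, in muscle macrophages (blue, 399 cells), P0 macrophages (red, 136 cells), P0 macrophages without the FAP-rich cells (open red, 89 cells) and P0 FAPs (grey squares), with exact 95% binomial intervals for macrophages. CD74 and BOLA-DRA fall from above 90% of cells to below 5%, while MMP9 goes from 0 to 87.5% of P0 macrophages and is at 2.67% in P0 FAPs.

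The change of macrophages was finally set against that of FAPs, of which the libraries held 1231 and 5756 cells, by testing the difference of the 2 log2 changes. Of the 407 genes called higher with all labelled cells, 280 were called higher in FAPs too and 16 lower. Of the 594 called lower, 351 were called lower in FAPs too and 18 higher. The share of all tested genes that was called in FAPs is not given here, so these counts lack a background. They include the FAP-rich cells, which held 40.7% of the P0 UMIs. How much those cells add to the overlap was not tested. Over 6365 tested genes 996 changed upwards in macrophages relative to FAPs (15.6%) and 614 downwards (9.65%), and of those that could be tested without the FAP-rich cells 652 of 922 and 488 of 566 were called again. Counted over all 5812 genes tested without the FAP-rich cells, the 2 directions were nearly even, 757 upwards (13%) and 726 downwards (12.5%). Among the genes also called in macrophages, the largest differences on the lower side were in BOLA-DMB (-12.89), FGD2 (-12.18), NCF4 (-10.12), LY75 (-9.87) and BOLA-DMA (-8.47). FGD2 and LY75, a lectin of antigen uptake, had 0 counts at P0, where they had been at 76.6 to 161 CPM (median 88.8) and 41.3 to 134 CPM (median 82.5) in muscle. NCF4, a subunit of the phagocyte oxidase, was at 54.8 to 212 CPM (median 106) in muscle and 21 to 65.6 CPM (median 31.9) at P0 (log2FC -1.59 ± 0.28, adjusted p = 1.65e-05), while in FAPs it went from 0 to a mean of 12.2 CPM. FAPs held at most 3.70 CPM of BOLA-DMB, FGD2, LY75 and BOLA-DMA, and differences fitted to so few counts, NCF4 included, depend on the count that the model adds before taking logarithms. On the higher side stood CYP3A4 (10.65), SAA3 (10.19), TNNI2 (7.55), DCN (6.02) and SFRP4 (6.02). Of these 5, 3 are known from other cell types. The matrix gene DCN and the Wnt antagonist SFRP4 are made by FAPs, where they went from 18741 to 2813 CPM and from 624 to 1267 CPM. In the macrophage sums they went from 5.12 to 427 CPM (median 47.7) to 651 to 1583 CPM (median 884) and from 0 to 12.1 CPM (median 0) to 168 to 1051 CPM (median 542), and DCN lay at 246 CPM in the pooled FAP-poor cells, 2251 CPM in the FAP-rich cells and 2867 CPM in FAPs. TNNI2, a troponin of muscle fibres, fell in both cell types, in macrophages from 23.3 to 175 CPM (median 75.3) to 0 to 21 CPM (median 4.79), and all 4 fibre markers that could be tested were lower, the list of 10 summing to 266 to 852 CPM in muscle and 0 to 28 CPM at P0.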

How the data were processed

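Cells of 5 timepoints were profiled with 3′ droplet libraries, and the muscle and P0 libraries were used here. Per the study's methods and the submitters' processing notes, the authors aligned reads to ARS-UCD1.2 with Cell Ranger 6.0.1, assigned barcodes to donors by genotype, removed barcodes of low quality, and named cell types of the muscle library from cluster genes and from phenotypes transferred from mouse data. Clusters at P0 were named by comparing the 2 timepoints. They deposited raw UMI counts per gene (21880 features, 16828 with a symbol) and, per cell, the donor, the cell type and the percentage (percent) of mitochondrial UMIs. These were used as deposited, and 24 other columns of per-cell or per-sample values were not used.

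Raw counts were summed per donor over at least 10 labelled cells, since cells of 1 animal are not replicates. Sums were compared with edgeR 4.0.16 in R 4.3.3 (TMM factors, filterByExpr with a minimum count of 10, robust quasi-likelihood F test, two-sided, Benjamini-Hochberg adjustment over all tested genes) with the study's thresholds of 0.05 for the adjusted p and 1 for the absolute log2FC. No donor block was used in the main fit. Apart from donor 3, the donors are animals that gave cells to both timepoints, so a block pairs them. The deviations of paired sums from their group means correlated weakly (-0.0040 to 0.0860 over the 7 pairs). This correlation was taken over all tested genes, in sums of few cells. It cannot show that a block is unneeded for genes that vary widely between donors. The standard error is the absolute log2FC over the square root of F. CPM of donor sums were scaled by the TMM factors of their fit, and mean CPM of FAPs by those of the joint fit with macrophages. CPM of pooled cells and of donors left out for few cells were not scaled. A gene without counts in a group is given as a bound against 3 counts over that group, and a gene with 1 to 3 counts as a ratio with its exact interval. Bounds, ratios and these intervals use counts pooled over the donors of a timepoint, so the intervals leave out differences between animals. The adjusted p beside them is that of the fit. The difference from FAPs is the interaction of cell type and timepoint in the same kind of fit. On simulated counts with these group and library sizes the fit recovered 100% of genes changed by a log2FC of 1.5, 2 or 3, with 2 false calls among 2815 genes, and the interaction recovered 86.6, 100 and 100%, with 2 among 6128. The simulation gave every gene the same dispersion and no difference between donors, and changed only genes with ample counts. These rates therefore do not carry over to sparse genes or to genes that vary widely between donors.

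The genes named were the 12 with a symbol that changed most in each direction with at least 50 CPM in the higher group and the same direction in all paired donors, up to 4 called and 2 uncalled genes of each list, the 5 largest differences from FAPs in each direction, and marker genes. Other genes were chosen after their values were seen. The cell group and the gene lists were chosen with earlier results of these data known. The FAP-rich cells were defined after the data were seen. Alternatives were DESeq2 1.42.0, no filter, a donor block, thinning to 77392 UMIs, other minimum cell numbers, leaving out donors, cells rich in stromal UMIs or mitochondrial and ribosomal genes, and thinning single cells to 1000 UMIs. No doublet caller was run beyond the genotype calls, which cannot find doublets within 1 donor, and free RNA was not removed. Strand handling of the counts is not given in the sources used here, so overlapping and antisense genes cannot be told apart. Some genes are not reported here.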

Additional observations from a re-analysis of the deposited data

Results flagged for a closer look

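In 45 of 310 groups of donor sums tested over the named genes, the highest or lowest donor stood apart from the others by Dixon's test at the 95% level. The nominal rate of 1 in 20 groups holds for normally distributed values. It does not hold for the CPM of sparse genes, where a gene with counts in only 1 donor is always flagged, so the number flagged cannot be set against it. No explanation was tested, and levels are in CPM.

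In muscle, donor 5 was highest for CD5L (1313), C1QC (8011), C3AR1 (398) and CCL16 (439), and donor 6 for CR2 (876), APOE (1467), HMOX1 (1747) and TXN (611). Donor 7 was highest for SAA3 (2.42), DCN (427) and MMP2 (46.1), donor 8 for MT1E (10.96) and IGF1 (175), and donor 9 for MT1A (21.9) and PTX3 (29.2). TLR2 (103) was highest in donor 2, PTPRC (511) in donor 3, CCL8 (499.6) in donor 10 and IL6 (15.4) in donor 1, which held all of its counts.

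At P0, donor 4 was highest for CYP3A4 (767), CD68 (780.2), APOE (269), CTSB (1534), TYROBP (1587) and IL10 (39.3), and donor 9 for IL6 (916), CD9 (803), CTSK (1707), SOD2 (4386) and PKM (1413), while LGMN (136) was lowest in donor 9. Donor 5 was highest for BOLA-DMA (8.88), CD209 (8.88), PLTP (26.6) and ALOX5 (17.8), donor 6 for CCL24 (192), IL1R2 (594) and LPL (4.79), donor 7 for TLR2 (154) and MMP14 (273), donor 10 for CD74 (55.6) and BOLA-DRA (75.9), and donor 1 for LYZ (3.98), BOLA-DQB (3.98) and FTH1 (82289.8). The levels of BOLA-DMA, CD209, LPL, LYZ and BOLA-DQB are 1 count each, and the level of SAA3 in muscle is 1 count as well.

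The change from muscle to P0 differed between macrophages and FAPs by the test of that difference, relatively higher in macrophages for CYP3A4 (10.65 on the log2 scale), SAA3 (10.19), TNNI2 (7.55), DCN (6.02) and SFRP4 (6.02), and relatively lower for BOLA-DMB (-12.89), FGD2 (-12.18), NCF4 (-10.12), LY75 (-9.87) and BOLA-DMA (-8.47).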

How the results depend on the processing

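Counts of called genes depended on what was tested. Against 1001 genes called (407 higher, 594 lower), 3389 were called with no filter on low counts (1518 and 1871), 474 with all sums thinned to the smallest (196 and 278), 644 without the 25% of cells richest in stromal UMIs (263 and 381), 578 without the FAP-rich cells at 5 cells per sum (230 and 348) and 572 with the donor block added (229 and 343). Without the FAP-rich cells at 10 cells per sum, which left 4 P0 donors, 1048 were called (383 and 665) of 3305 tested. DESeq2 called 405 higher and 596 lower and the donor block alone 401 and 579. Leaving out each donor gave 956 to 1073 calls (392 to 431 higher, 563 to 642 lower). For the difference from FAPs (1610 genes, 996 and 614), thinning left 494 (329 and 165), where CYP3A4 and BOLA-DMA were no longer called, and FGD2 and LY75 were not called by DESeq2. The donor block changed the calls of 3 named genes, S100A12, which was called, and MAN2B1 (-0.89) and PSMB9 (-0.79), which were not, and changed no other call among them.

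Among the 155 named genes tested, DESeq2 reversed no direction and ended 3 calls, those of S100A8, S100A9 and CD55. Sums of at least 20 cells, which left 8 muscle and 2 P0 donors, ended 21 (CD5L, LYZ, F13A1, VCAN, S100A8, S100A9, CD55, TLR2, CD52, MAN2B1, CCL16, CXCL8, CCL4, CCL8, IL1RN, MMP14, HMOX1, IRF1, PSMB9, CENPF and CEBPD). Without the FAP-rich cells and with 10 cells per sum, 14 calls ended, those of S100A8 (2.84), S100A9 (2.77), VCAN (1.80), F13A1 (-0.66), CTSS (-0.75), TLR4 (-0.95), PSAP (-0.71), MAN2B1 (-0.26), CXCL16 (-0.95), HMOX1 (-1.53), IRF1 (-0.64), PSMB9 (-0.56), SPI1 (-0.70) and PTPRC (-0.92). Without them and with the donor block 9 ended, those of NCF4 (-0.88), F13A1 (-1.30), CTSS (-0.77), ACP5 (-0.82), PSAP (-0.55), MAN2B1 (-0.43), PSMB9 (-0.54), SPI1 (-0.64) and PTPRC (-0.82), and without the 25% of cells richest in stromal UMIs 6, those of VCAN, CTSS, ACP5, PSAP, MAN2B1 and SPI1, and S100A12 (log2FC 2.42), CD40 (1.17), FTL (1.11) and FCGR1A were then called higher. S100A12 (4.77), CD40 (1.24) and FCGR1A (1.25) were also called higher without the FAP-rich cells with the donor block. In donors with both sums alone the calls of MAN2B1, CCL8 and PSMB9 ended. Leaving out 1 donor ended further calls, as log2FC, of CD55 (0.91 to 0.99 without donor 1, 5 or 10), MAN2B1 (-0.96 to -0.92 without donor 3, 5, 6, 8 or 9), IRF1 (-0.95 without donor 5, -0.96 without donor 7), TLR2 (0.93) and MMP14 (0.89) without donor 7, PSMB9 (-0.99) without donor 3 and PSAP (-0.99) without donor 10, and gave calls to S100A12 (2.51) and APOE (-3.43) without donor 4 and to CD163 (-1.03) and CD40 (1.01) without donor 10. The values of other called genes moved by over 1.5 times when 1 donor was left out. Where that left 0 counts at a timepoint, SAA3 was at least 1760-fold higher without donor 7, MT1E at least 469.7-fold without donor 8 and IL6 at least 329.9-fold without donor 1, and LYZ was at least 164-fold lower and BOLA-DQB at least 173-fold without donor 1, CD209 at least 83.9-fold without donor 5 and LPL at least 42.4-fold without donor 6. Where 1 to 3 counts were left, MT1A kept 1 muscle count without donor 9, and at P0 IGF1 kept 2 without donor 1, CD52 2 without donor 4, and IL1RN 3 and DUSP2 1 without donor 10. The log2FC was otherwise -7.10 for CD83 and -4.74 for KLF4 without donor 1, 12.26 for CXCL5, 4.60 for IL1R2, 3.24 for VCAN and 3.11 for S100A9 without donor 4, 3.40 for CENPF without donor 5, -3.72 for CCL24 and -3.87 for BHLHE40 without donor 6, 4.04 for DCN, 7.43 for SFRP4 and 6.74 for MMP2 without donor 7, 8.43 for PTX3 without donor 9, and -8.70 for BLA-DQB, -4.79 for CCL16 and -6.47 for GPR183 without donor 10. With 5 cells per sum FOS was at -7.55, BLA-DQB at -7.26, FGD2 at -6.19 and CD52 at -3.25, and the calls of CD55 (0.95) and TLR2 (0.89) ended, as did that of CD55 with thinned sums (0.97). In genes that were called in neither direction the sign turned in places. Without the 25% of cells richest in stromal UMIs, without the FAP-rich cells, without them at 10 cells per sum, and without them with the donor block, the log2FC was 0.25, 0.40, 0.39 and 0.31 for IFI30, 0.46, 0.39, 0.52 and 0.38 for LGMN, 0.18, 0.22, 0.14 and 0.12 for C5AR1, 0.25, 0.24, 0.42 and 0.30 for CFP, 0.36, 0.50, 0.50 and 0.49 for FCER1G, 0.28, 0.41, 0.31 and 0.43 for CD14, 0.12, 0.35, 0.26 and 0.45 for CCR1 and 0.23, 0.38, 0.13 and 0.40 for TYROBP. CTSB was at 0.014 and 0.031 in the first 2 of these and GRO1 at 0.065 in the second. CD14 was at 0.13 when thinned and LGMN at 0.0089 with 20 cells per sum. CD68 was at -0.032 with the donor block and -0.34 with 20 cells per sum, and CXCL3 at -0.17 with 5 cells per sum, -0.10 with 20 and -0.13 in donors with both sums. With each donor left out the ranges were -0.19 to 0.014 for IFI30, -0.19 to 0.033 for LGMN, -0.091 to 0.074 for CD14, -0.22 to 0.42 for CD68 and -0.12 to 0.29 for CXCL3. The cause of these shifts was not tested.

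With 12 to 29 cells per P0 sum, genes near 50 CPM rest on a few counts per donor. Of 18 shares of cells with a UMI, 13 lay outside their interval when cells were thinned to 1000 UMIs, and no share is a share of cells that express the gene. Each timepoint is represented by 1 table of cells, and run 2 of P0 in the labels was not analysed here.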
